A study of Mus musculus with 9 samples.

Results

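The vomeronasal receptors of types 1 and 2 were followed in an array study of mouse nasal mucosa. A gene belonged to the set if a probe set carrying its symbol alone was annotated as Vmn1r or Vmn2r followed by a number, and a gene with several such probe sets was represented by the one brightest on average. This gave 163 genes, 117 of type 1 and 46 of type 2, of the 19938 genes with a single-gene probe set. They were measured by 170 probe sets, and 7 of the 163 had more than 1. A further 81 receptor genes (45 of type 1 and 36 of type 2) occurred only in probe sets annotated to several genes and are not described by name, since receptors of these families are so alike that a probe can bind RNA of more than 1 of them. RefSeq's table for assembly GRCm38.p6 matched all 163 members by symbol and Entrez number and lists 357 receptor genes of these names, 231 of type 1 and 126 of type 2. The 163 are therefore the members with a probe set annotated to them alone, not the whole families.

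Vomeronasal receptors are the pheromone detectors of the vomeronasal organ, a blind tube at the base of the nasal septum with its own sensory neurons. Neurons of its apical layer use type 1 receptors, which signal through the G protein Gnai2 and are known for small volatile and steroid ligands. Neurons of the basal layer use type 2 receptors, which have a large outer domain, signal through Gnao1 and are known for peptide and protein ligands. Each neuron uses only a few of the genes, so any single receptor is made by a small share of the cells.

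The 9 Affymetrix Mouse Gene 1.0 ST arrays held RNA of nasal mucosa from BALB/c mice, an inbred strain, all labelled male and 6 to 8 weeks old. The 4-week group (3 arrays) was sensitised to and challenged with ovalbumin (OVA), the main protein of hen egg white and here the allergen, and killed 4 weeks after the last challenge. The OVA group (3 arrays) had the same treatment and was taken 2 hours after the last challenge, and the control group (3 arrays) received saline in both steps. The labels do not say whether the vomeronasal organ was part of the tissue taken and tie no array to an animal of its own. A p-value here reflects only how much samples varied within groups, pooled over all 3 groups and moderated by the variation of all probe sets. Part or all of that variation can be technical. In a bulk sample, fewer neurons that use a receptor and less RNA per neuron cannot be told apart.

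The deposited values are on a log2 scale, where 1 unit is a doubling, after RMA, which corrects background, sets the probes of all arrays to a common distribution and summarises the probes of a set. The medians of the arrays ran from 6.38 to 6.45, and arrays of different groups correlated across probe sets at r = 0.973 to 0.988, against 0.986 to 0.992 within groups. Xist, the RNA of the inactive X chromosome of female cells, stood at 4.27 to 4.42 in the 4-week arrays and 4.22 to 4.36 in the OVA arrays, against 10.62, 10.70 and 11.11 in the arrays labelled control. The arrays labelled control thus go against their male label. In each comparison with them, treatment and this sex pattern cannot be told apart, and only the 4-week and OVA groups share a pattern.

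The receptors lay at the low end of the measured range. The mean over the 9 arrays had a median of 3.25 over the type 1 genes and 3.39 over the type 2 genes, against 6.42 over all 23410 probe sets tested and 5.38 over 1015 olfactory receptor genes, the receptors of the main olfactory epithelium. Of the 163 members, 146 (108 of type 1 and 38 of type 2) fell in the lowest decile of all probe sets by mean, which ended at 4.02. No detection calls come with the values, so a member at such a level cannot be called present or absent, and levels of different probe sets are given only for orientation, since they also depend on the probes. Means above 5 were found for 4 type 1 genes and 1 type 2 gene.

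**Figure D1:**
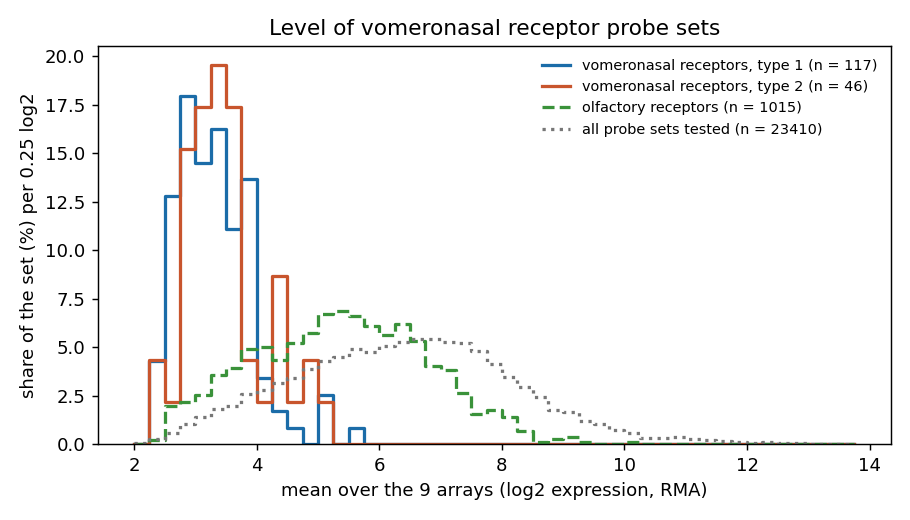
Share of each gene set (vertical axis, percent) by mean log2 expression over the 9 arrays (horizontal axis, in steps of 0.25), for the type 1 and type 2 vomeronasal receptors, the olfactory receptors and all probe sets tested. Both vomeronasal types peak between 2.5 and 4, below the medians of the olfactory receptors (5.38) and of all probe sets (6.42).

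The members with the highest type 1 means were Vmn1r208 (5.54), Vmn1r86 (5.21), Vmn1r193 (5.08), Vmn1r89 (5.01), Vmn1r233 (4.72) and Vmn1r217 (4.46). Those at the bottom were Vmn1r23 (2.45), Vmn1r170 (2.32) and Vmn1r22 (2.31). Among type 2 genes the highest means belonged to Vmn2r26 (5.11), Vmn2r9 (4.90), Vmn2r54 (4.77), Vmn2r83 (4.53), Vmn2r93 (4.44) and Vmn2r60 (4.38). The lowest belonged to Vmn2r94 (2.66), Vmn2r15 (2.48) and Vmn2r121 (2.43).

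A few members have a ligand or role known from mouse studies. Vmn2r26, which responds to peptides presented by MHC class I, had 4.71, 4.72 and 5.36 in the 4-week arrays, 4.85, 5.26 and 5.40 in the OVA arrays and 4.90, 5.45 and 5.31 in the arrays labelled control. Vmn1r85, a receptor for sulfated steroids, had 4.30, 4.07 and 4.56 at 4 weeks, 4.11, 4.39 and 4.29 after OVA and 4.23, 3.96 and 4.26 in the arrays labelled control. For both, the groups overlapped in every comparison.

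Vmn1r49, a receptor for the urinary ketone heptanone, stood at 2.94, 2.94 and 3.00 at 4 weeks, 2.90, 3.17 and 3.35 after OVA and 2.94, 3.11 and 2.84 in the arrays labelled control. Vmn2r1, a member of the small family of type 2 receptors that neurons use together with another type 2 receptor, stood at 3.69, 3.37 and 3.35 at 4 weeks, 3.61, 3.80 and 3.61 after OVA and 3.61, 3.36 and 3.65 in the arrays labelled control. The groups overlapped for both genes in every comparison.

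The widest spread over the 9 arrays was that of Vmn1r89, another receptor for sulfated steroids, with an SD of 0.70, followed by Vmn1r86 with 0.60. The median SD of a member over the 9 arrays was 0.17 for type 1 and 0.20 for type 2. Vmn1r89 had 5.74, 4.31 and 4.90 at 4 weeks, 3.83, 5.94 and 5.64 after OVA and 4.67, 4.76 and 5.26 in the arrays labelled control. Vmn1r86, which lies close to Vmn1r89 on chromosome 7 in the RefSeq table, had 5.47, 4.85 and 5.22 at 4 weeks, 4.20, 5.81 and 6.18 after OVA and 4.62, 5.31 and 5.26 in the arrays labelled control. Both genes were lowest in OVA replicate 1 and high in OVA replicates 2 and 3, so that the OVA group spanned the other groups for both. The spread of this pair was singled out after the values were seen, and whether their probes bind each other's RNA was not tested.

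**Figure D2:**
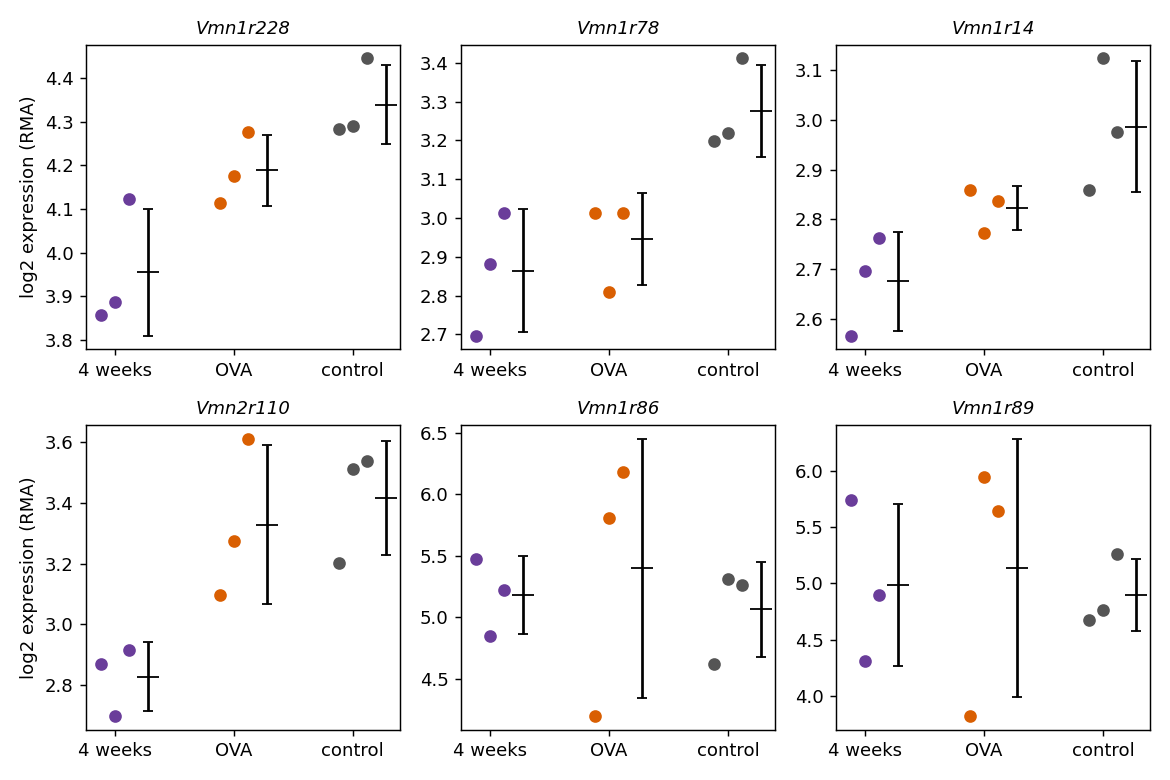
Log2 expression (vertical axes) of the 4 members called in any comparison and of the pair with the widest spread, by group (horizontal axes), with a point per array and, beside it, the group mean with its SD (n = 3). For Vmn1r228, Vmn1r78, Vmn1r14 and Vmn2r110 the 4-week points lie below all points of the arrays labelled control, while Vmn1r86 and Vmn1r89 range widely within the OVA group.

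The arrays differed in how high the receptors stood as a set, and did so within groups. Each member was centred on its own mean of the 9 arrays, and the median of the centred values was taken per array. For type 1 it was −0.099, −0.16 and 0.0048 in 4-week replicates 1, 2 and 3, −0.094, 0.053 and 0.043 in OVA replicates 1, 2 and 3 and −0.011, 0.030 and 0.081 in the arrays labelled control. For type 2 it was −0.10, −0.18 and 0.0095 at 4 weeks, −0.15, 0.15 and 0.12 after OVA and 0.00072, 0.0058 and 0.13 in the arrays labelled control. Both types were low in 4-week replicates 1 and 2 and in OVA replicate 1, and the spread between OVA replicates was as wide as any difference between group means.

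Of the 117 type 1 members, 111 were below their own mean in 4-week replicate 2 and 105 in OVA replicate 1, against 38 in OVA replicate 2 and 37 in control replicate 3. Of the 46 type 2 members, 43 were below their own mean in 4-week replicate 2 and 41 in OVA replicate 1, against 9 each in OVA replicates 2 and 3. The same 3 arrays had the lowest floor of the whole table. The 5th percentile of all probe sets was 3.32, 3.34 and 3.47 in 4-week replicates 1, 2 and 3, 3.37, 3.52 and 3.53 in the OVA replicates and 3.50, 3.52 and 3.53 in the arrays labelled control. The centred median of the lowest decile of all probe sets ran along with it, from −0.12 in 4-week replicate 1 to 0.041 in control replicate 3. After quantile normalization of the deposited values, which gives every array the same floor, the type 1 medians per array lay between −0.077 and 0.034 and the type 2 medians between −0.12 (OVA replicate 1) and 0.092 (OVA replicate 2).

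**Figure D3:**
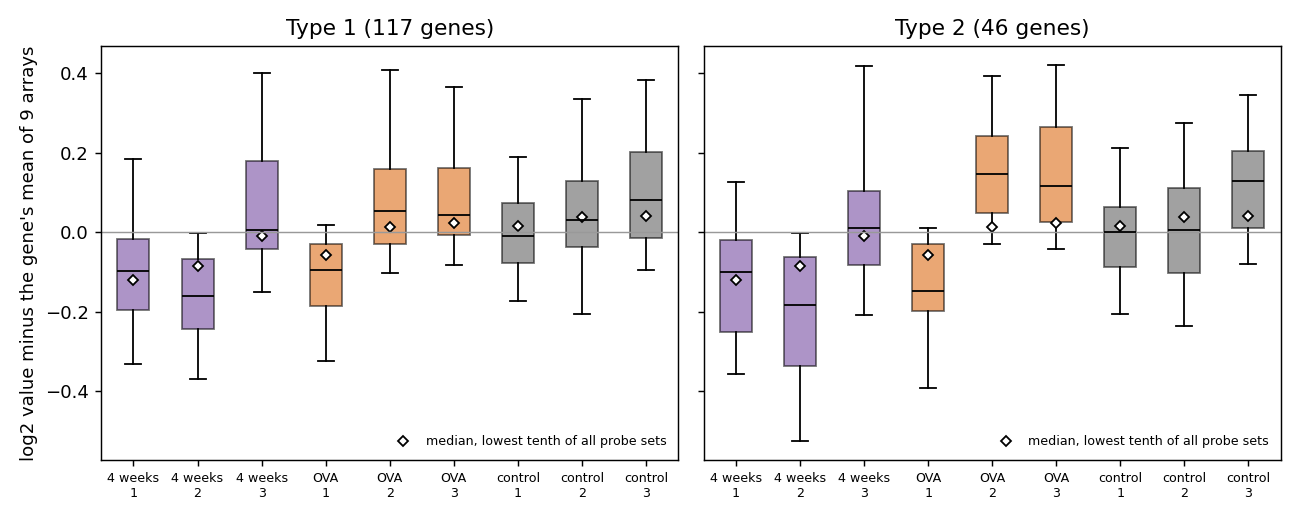
Log2 value of each member minus its own mean of the 9 arrays (vertical axis), per array (horizontal axis), for type 1 (left) and type 2 (right). Boxes hold the quartiles with the median as a line, whiskers the 5th and 95th percentiles, and open diamonds the median of the lowest decile of all probe sets. Both types are low in 4-week replicates 1 and 2 and in OVA replicate 1.

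The first comparison spanned sensitisation, all challenges and the sex pattern, since the OVA arrays and the arrays labelled control differ in each. What the final challenge alone had changed was therefore not tested. No receptor passed between the OVA arrays and the arrays labelled control. With limma, 0 of 117 type 1 and 0 of 46 type 2 members had an adjusted p under 0.05, where 1.3% of all probe sets did (0.782% higher and 0.521% lower). An adjusted p is the share of false calls to expect among all probe sets called at that level. At an unadjusted p under 0.05 there were 6 type 1 members, 1 higher and 5 lower, and 1 type 2 member, which was lower, against 16.4% of all probe sets (8.45% higher and 7.92% lower). The groups did not overlap for 11 type 1 and 3 type 2 members. That is 8.59% of the 163, against 21.5% of all probe sets. The median log2 change was −0.04 for type 1 (quartiles −0.12 and 0.04) and 0.03 for type 2 (quartiles −0.05 and 0.09), against −0.02 over all probe sets and −0.05 over the lowest decile. The direction of both medians rested on single arrays. Without OVA replicate 1 they were 0.0058 and 0.11, and without OVA replicate 2 they were −0.09 and −0.03.

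The type 1 members with the smallest p were Vmn1r211, Vmn1r78 and Vmn1r73. Vmn1r211 had 3.02, 3.15 and 3.00 in the OVA arrays and 3.53, 3.25 and 3.40 in the arrays labelled control, a log2 change of −0.33 (SE 0.094, adjusted p = 0.129). Vmn1r78 had 3.01, 2.81 and 3.01 in the OVA arrays against 3.20, 3.22 and 3.41 in the arrays labelled control, a change of −0.33 (adjusted p = 0.164). Vmn1r73 had a change of −0.21 (adjusted p = 0.198). For all 3 the OVA arrays lay below every array labelled control. Among type 2 members Vmn2r68 had −0.26 (adjusted p = 0.285), Vmn2r109 −0.27 (adjusted p = 0.324) and Vmn2r18 0.17 (adjusted p = 0.401), and of these only Vmn2r68 had groups that did not overlap.

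The second comparison asked what differed between the 4-week and OVA groups, which share a sex pattern. Both are labelled 6 to 8 weeks old, but they differ in time since challenge and may differ in age when killed. The effect of an allergen-free period was therefore not tested apart from age or from the early response to the challenge. Again 0 of 117 type 1 and 0 of 46 type 2 members passed between the 4-week and the OVA arrays in limma, where 6.33% of all probe sets did (3.81% higher and 2.51% lower). At an unadjusted p under 0.05 there were 9 type 1 members, 2 higher and 7 lower, and 2 type 2 members, both lower, against 23.9% of all probe sets (12.2% higher and 11.7% lower). The groups did not overlap for 11 type 1 members, 2 higher and 9 lower, and 3 type 2 members, or 8.59% of the 163, against 28.1% of all probe sets (14.5% higher and 13.7% lower). The 3 type 2 genes were Vmn2r17, Vmn2r110 and Vmn2r76, all lower.

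Most members lay lower at 4 weeks by a little. The median was −0.09 for type 1 (quartiles −0.15 and −0.02), with 94 of 117 below 0, and −0.18 for type 2 (quartiles −0.24 and −0.05), with 37 of 46 below 0. Over the lowest decile of probe sets it was −0.08, with 75.7% below 0, and over all probe sets −0.02. The type 2 median ranged from −0.26 without OVA replicate 1 to −0.11 without OVA replicate 3, and was −0.08 after quantile normalization. The type 1 median ranged from −0.15 without 4-week replicate 3 to −0.05 without 4-week replicate 2 and was 0.012 after quantile normalization. The type 2 median was thus 0.095 lower than that of type 1 as deposited. No test was made of this difference, because members share arrays and sequence and are not replicates.

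Vmn2r110 had the largest change of the type 2 members named by their p. It stood at 2.87, 2.70 and 2.91 in the 4-week arrays and 3.10, 3.28 and 3.61 in the OVA arrays, a log2 change of −0.50 (SE 0.14, adjusted p = 0.0728). Its groups did not overlap. Vmn2r17 had 3.42, 3.55 and 3.44 at 4 weeks against 3.68, 3.89 and 3.65 in the OVA arrays (−0.27, adjusted p = 0.101), and Vmn2r23 had −0.29 (adjusted p = 0.215). A second, dimmer probe set of Vmn2r17 had −0.01 (adjusted p = 0.975), and that of Vmn2r23 had −0.14 (adjusted p = 0.672). Of type 1, Vmn1r172 had 2.36, 2.26 and 2.29 at 4 weeks and 2.47, 2.59 and 2.94 after OVA (−0.36, adjusted p = 0.126). Vmn1r228 had −0.23 (adjusted p = 0.16). Vmn1r211 went the other way, with 3.26, 3.22 and 3.45 at 4 weeks, all above the OVA arrays (0.25, adjusted p = 0.142). Without 1 array, none of these 6 passed in any of the 9 fits.

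**Figure D4:**
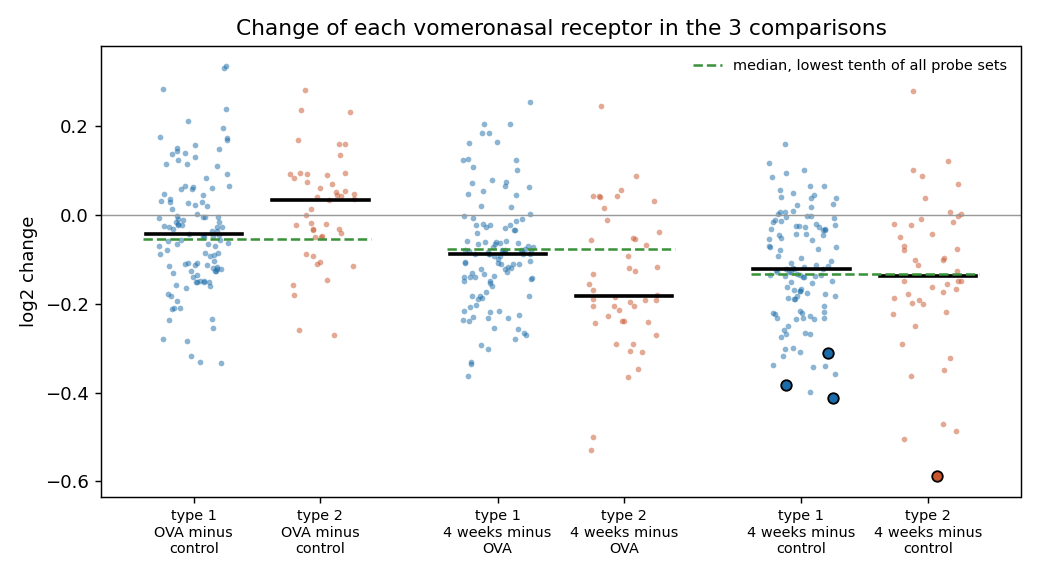
Log2 change (vertical axis) of every type 1 and type 2 member in the 3 comparisons (horizontal axis). Black bars are medians, green dashed lines the median of the lowest decile of all probe sets, and outlined points the members with an adjusted p under 0.05. The 4 outlined points, all below 0, lie in the comparison of 4 weeks with control, and the medians of type 1 stay within 0.02 of the dashed lines in each comparison.

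The third comparison set the 4-week arrays against the arrays labelled control, across both treatment and sex pattern. Here 4 of 163 members fell and none rose: Vmn1r228, Vmn1r78 and Vmn1r14 of type 1 and Vmn2r110 of type 2. That is 2.45% of the members, against 14.4% of all probe sets called in either direction, 7.92% higher and 6.45% lower. At an unadjusted p under 0.05 there were 16 type 1 and 6 type 2 members, all lower, against 32.9% of all probe sets (15.4% higher and 17.5% lower). In the lowest decile of probe sets 134 were called lower and 10 higher, or 6.15% in all. The groups did not overlap for 19 type 1 and 10 type 2 members, all lower (17.8% of the 163), against 35.0% of all probe sets in either direction, 16.6% higher and 18.4% lower.

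Vmn1r228, whose gene is on chromosome 17, had 3.86, 3.89 and 4.12 in the 4-week arrays and 4.28, 4.29 and 4.44 in the arrays labelled control. It was 1.30-fold lower (log2 change −0.38, SE 0.09, adjusted p = 0.0258). Vmn2r110, also on chromosome 17, had 2.87, 2.70 and 2.91 at 4 weeks against 3.20, 3.51 and 3.54 in the arrays labelled control and was 1.50-fold lower (−0.59, SE 0.14, adjusted p = 0.0278). Vmn1r78, on chromosome 7, had 2.70, 2.88 and 3.01 at 4 weeks against 3.20, 3.22 and 3.41 in the arrays labelled control and was 1.33-fold lower (−0.41, adjusted p = 0.0318). Vmn1r14, on chromosome 6, had 2.57, 2.70 and 2.76 at 4 weeks against 2.86, 3.12 and 2.98 in the arrays labelled control and was 1.24-fold lower (−0.31, adjusted p = 0.0414). For each of the 4 genes, all 4-week arrays lay below all arrays labelled control.

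All 4 calls depended on single arrays. Vmn1r228, Vmn2r110 and Vmn1r78 each passed in 5 of 9 fits with an array left out and not without control replicate 2, control replicate 3, 4-week replicate 1 or 4-week replicate 2 (adjusted p up to 0.0862, 0.0921 and 0.0918). Vmn1r14 passed in 2, those without control replicate 1 or 4-week replicate 3 (otherwise adjusted p up to 0.114). The count of type 1 members called was 6 without control replicate 1 or 4-week replicate 3, 1 without control replicate 2 and 0 without control replicate 3, 4-week replicate 1 or 4-week replicate 2. The count of type 2 members was 3 without 4-week replicate 3, 2 without OVA replicate 1 or 3 and 0 without control replicate 2 or 3 or 4-week replicate 1 or 2. After quantile normalization or median centring, Vmn1r228 and Vmn2r110 passed, while Vmn1r78 (adjusted p = 0.0706 and 0.0545) and Vmn1r14 (adjusted p = 0.101 and 0.0945) did not. With the compared groups only, Vmn1r228 (0.0566), Vmn1r78 (0.0597) and Vmn1r14 (0.0862) did not pass.

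The type 2 genes next in p were Vmn2r96 (2.59, 2.59 and 2.84 at 4 weeks, 3.10, 3.04 and 3.34 in the arrays labelled control; −0.49, adjusted p = 0.0713) and Vmn2r109 (−0.36, adjusted p = 0.0813). Vmn2r96 passed without OVA replicate 1 or OVA replicate 3 (lowest adjusted p = 0.0363). The median of all members was −0.12 for type 1, with 97 of 117 below 0, and −0.14 for type 2, with 38 of 46 below 0, against −0.13 over the lowest decile and −0.04 over all probe sets. After quantile normalization these medians were −0.011 for type 1 and −0.03 for type 2. This comparison shares arrays with the other 2, so its values are not independent of theirs.

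The members are spread over several chromosomes. Of the type 1 genes, 41 lie on chromosome 6, 34 on chromosome 7, 27 on chromosome 13, 14 on chromosome 17 and 1 on chromosome 1. Between 4 weeks and OVA their medians were −0.08 on chromosome 6, −0.08 on chromosome 7, −0.09 on chromosome 13 and −0.10 on chromosome 17. Of the type 2 genes, 15 lie on chromosome 17, 14 on chromosome 7, 7 on chromosome 5 and 5 on chromosome 6, with medians of −0.13, −0.15, −0.19 and −0.17 in the same comparison, and 5 more on chromosomes 3, 4, 10 and X. On every chromosome with 5 or more members of a type, the median was below 0. So was that of the lowest decile of all probe sets (−0.08, with 75.7% below 0), so a median below 0 is not particular to the receptors. The type 2 medians on these chromosomes were lower than that of the decile, a difference that was not tested. The 4 genes called between 4 weeks and the arrays labelled control came from 3 chromosomes.

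The start windows of the 4 called genes are printed here because these are the members that passed the test. Each is a RefSeq window of 300 bases from build GRCm38.p6, 250 before and 50 after the annotated gene start, read 5′ to 3′ on the gene's strand. Capitals mark TATAAA and the homeodomain core TAATTA on either strand and, where the annotated start is a start codon, that ATG.
Vmn1r228 (chr17:20777452-20777751, minus strand): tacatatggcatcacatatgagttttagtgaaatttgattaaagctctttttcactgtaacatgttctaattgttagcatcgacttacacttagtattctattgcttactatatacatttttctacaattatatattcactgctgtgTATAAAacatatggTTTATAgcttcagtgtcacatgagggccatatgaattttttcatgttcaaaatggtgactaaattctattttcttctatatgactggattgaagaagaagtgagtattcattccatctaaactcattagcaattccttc
Vmn1r78 (chr7:12152214-12152513, plus strand): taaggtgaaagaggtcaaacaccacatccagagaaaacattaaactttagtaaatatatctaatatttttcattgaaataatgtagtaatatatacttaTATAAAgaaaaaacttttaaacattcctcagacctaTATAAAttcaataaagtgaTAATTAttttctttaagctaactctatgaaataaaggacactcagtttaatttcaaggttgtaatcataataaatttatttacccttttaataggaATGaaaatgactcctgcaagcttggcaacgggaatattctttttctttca
Vmn1r14 (chr6:57233189-57233488, plus strand): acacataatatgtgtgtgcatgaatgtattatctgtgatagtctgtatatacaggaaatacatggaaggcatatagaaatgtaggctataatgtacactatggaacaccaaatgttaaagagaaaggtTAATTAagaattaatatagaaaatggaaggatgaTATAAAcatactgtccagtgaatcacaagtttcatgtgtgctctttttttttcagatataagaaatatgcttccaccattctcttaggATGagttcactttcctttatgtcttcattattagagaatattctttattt
Vmn2r110 (chr17:20596210-20596509, minus strand): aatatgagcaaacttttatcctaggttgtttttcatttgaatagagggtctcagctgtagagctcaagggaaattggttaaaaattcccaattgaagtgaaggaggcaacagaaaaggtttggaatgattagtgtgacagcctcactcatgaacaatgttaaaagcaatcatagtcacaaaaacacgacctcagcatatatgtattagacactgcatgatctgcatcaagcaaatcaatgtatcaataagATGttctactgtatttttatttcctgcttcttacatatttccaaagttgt
TATAAA occurs in the windows of Vmn1r228, Vmn1r78 and Vmn1r14, TAATTA in those of Vmn1r78 and Vmn1r14, and neither in that of Vmn2r110.

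The windows of the receptors differ from those of most genes in composition. RefSeq held a window for 146 of the 163 members, 103 of type 1 and 43 of type 2. Their median GC content was 35.3% for type 1 and 38.7% for type 2, against 52.7% over all 32851 windows. The annotated gene start was an ATG in 80.6% of the type 1 and 88.4% of the type 2 windows, against 5.83% of all windows, so that for most members the window lies before the start codon and may not hold the promoter. On either strand, TATAAA was found in 37.9% of type 1 and 30.2% of type 2 windows, against 13.6% of all. TAATTA was found in 10.7% of type 1 and 11.6% of type 2 windows, against 5.29% of all, and the core site of the EBF factors of olfactory neurons in 0 of 103 and 0 of 43, against 0.904% of all. These are matches of letters, and short runs of A and T are met more often in windows rich in them.

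The G proteins that the receptors use were measured far above the receptors but are shared with other cells. Gnai2, the partner of type 1 receptors, had a log2 change of 0.19 between the OVA arrays and the arrays labelled control and −0.16 between 4 weeks and OVA, and Gnao1, the partner of type 2 receptors, 0.026 and −0.25 (adjusted p from 0.348 to 0.949). Gng8, the G protein gamma subunit of vomeronasal and immature olfactory neurons, differed between the groups where the receptors did not pass. It had 6.71, 6.44 and 6.35 at 4 weeks, 6.957, 6.969 and 7.001 after OVA and 6.32, 6.09 and 6.41 in the arrays labelled control. It rose 1.63-fold in the OVA arrays over the arrays labelled control (adjusted p = 0.0234) and fell 1.39-fold at 4 weeks below OVA (adjusted p = 0.0391). The first call was lost when control replicate 1, control replicate 2 or any 1 of the OVA replicates was left out (adjusted p up to 0.0864), and the second in 6 of 9 fits, those without control replicate 1, any OVA replicate or 4-week replicate 2 or 3 (up to 0.122). The first was also lost with every row of the table tested (adjusted p = 0.0517), and the second with every row (0.0536), after quantile normalization (0.0507) or median centring (0.0629) and with the compared groups only (0.0626).

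Of the 18 measured genes of vomeronasal signalling, Gng8 was the only one called in these comparisons. Of all probe sets, 1.3% and 6.33% were called there. Between 4 weeks and the arrays labelled control 3 of the 18 were called, where 14.4% of all probe sets were. Against that background the count shows nothing particular to these genes. Rgs2, a regulator of G protein signalling, rose (1.07), while Pirt, a regulator of TRP channels (−0.33), and Hcn2, a pacemaker channel (−0.71), fell. Rgs2 passed in all 9 fits with an array left out, Pirt in all but that without 4-week replicate 2 (adjusted p = 0.0554), and Hcn2 in only those without control replicate 1 or 4-week replicate 1 (otherwise up to 0.122). The channel gene Trpc2, which defines vomeronasal neurons, shares its probe set with other genes and is not given. The labelled tissue could be checked on other markers: Omp, the marker of mature olfactory neurons, had 11.47 to 12.08 at 4 weeks, 11.69 to 11.91 after OVA and 12.08 to 12.43 in the arrays labelled control. Its changes were −0.44 for OVA and −0.48 for 4 weeks against the arrays labelled control, and −0.04 for 4 weeks against OVA. None of these passed (adjusted p = 0.208, 0.0669 and 0.89).

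Of 19 measured genes of vomeronasal and olfactory neuron development, Gap43, a growth cone protein, rose in the OVA arrays over the arrays labelled control (0.51, adjusted p = 0.0398), and none passed between 4 weeks and OVA. Of all probe sets, 0.782% were called higher in the first of these comparisons and 6.33% were called in the second. Between 4 weeks and the arrays labelled control, 3 rose and 3 fell, where 7.92% of all probe sets were called higher and 6.45% lower; whether the list differs from other genes was not tested. Neurod1 (0.76), Nrp1, an axon guidance receptor (0.48), and Gap43 (0.38) rose. Kirrel3, an adhesion protein of vomeronasal axon sorting (−0.68), Rtp1, a transporter of odorant receptors (−0.63), and Bcl11b, a transcription factor of vomeronasal neurons (−0.44), fell. The OVA call of Gap43 stood only in the fits without OVA replicate 3 or 4-week replicate 1 (otherwise adjusted p up to 0.121). Of the 4-week calls, Neurod1 and Nrp1 were lost without control replicate 2 (adjusted p = 0.055 and 0.052), Kirrel3 without control replicate 2 or 3 or 4-week replicate 2 (up to 0.0618) and Rtp1 without any 1 of these or 4-week replicate 3 (up to 0.0958). Gap43 was lost without any 1 of the control replicates or 4-week replicate 1 or 2 (up to 0.0788), and Bcl11b stood only without OVA replicate 2 or 3 or 4-week replicate 1 (otherwise up to 0.109).

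The non-classical MHC genes of the H2-M group are made by neurons with type 2 receptors. Of 9, H2-M10.3 and H2-M10.6 rose in the OVA arrays over the arrays labelled control, 4.91-fold and 1.82-fold (adjusted p = 0.0192 and 0.0383), where 0.782% of all probe sets were called higher. The 9 did not rise as a group: their median log2 change was 0.07. H2-M1 (−0.45, adjusted p = 0.319) and H2-M11 (−0.33, adjusted p = 0.247) were not called, but all their OVA arrays lay below all arrays labelled control. By mean over the 9 arrays, H2-M10.6 (3.96), H2-M1 (3.73) and H2-M11 (3.76) lay in the lowest decile of all probe sets. H2-M10.3 (7.48) did not. H2-M10.3 had 7.92, 7.65 and 7.67 at 4 weeks, 8.46, 8.40 and 8.63 after OVA and 5.46, 6.02 and 7.13 in the arrays labelled control, and it also rose at 4 weeks over the arrays labelled control (2.92-fold, adjusted p = 0.0203). Between 4 weeks and the arrays labelled control, 7.92% of all probe sets were called higher. None of the 9 passed between 4 weeks and OVA, where 6.33% of all probe sets did. In the OVA comparison the call of H2-M10.3 was lost in 3 of 9 fits, those without control replicate 2, OVA replicate 1 or OVA replicate 3 (adjusted p up to 0.0895), and that of H2-M10.6 in 7, all but those without control replicate 1 or 2 (up to 0.129). The 4-week call of H2-M10.3 was lost without control replicate 2 or 4-week replicate 1 or 2 (up to 0.0683). Beside these steps, the median of the type 2 receptors between OVA and the arrays labelled control was 0.03.

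Of 4 measured formyl peptide receptors of vomeronasal neurons, Fpr-rs4 fell between 4 weeks and the arrays labelled control (−0.42, adjusted p = 0.0171). The call was lost without control replicate 2 or 4-week replicate 2 (up to 0.0625). None passed otherwise, and 6.45% of all probe sets were called lower in that comparison. Fpr-rs4 had a mean of 3.05 over the 9 arrays, within the lowest decile of all probe sets. The median change of that decile in the same comparison was −0.13. Another list held 7 measured genes for pheromones and their carriers, among them Esp1, a tear peptide, and several urinary proteins. None passed in any comparison, where 1.3%, 6.33% and 14.4% of all probe sets did in the 3 comparisons in turn. The lipocalins Lcn3 and Lcn4, secreted by glands of the vomeronasal organ and the nasal septum, belong to this list and were singled out after their values were seen. Lcn4 had 11.97, 12.62 and 8.61 at 4 weeks, 12.35, 12.12 and 12.09 after OVA and 12.15, 9.56 and 8.82 in the arrays labelled control. Lcn3 had 11.91, 12.52 and 8.51 at 4 weeks, 12.17, 12.14 and 12.03 after OVA and 12.14, 10.74 and 9.35 in the arrays labelled control. Both were low in 4-week replicate 3 and control replicate 3, where the centred medians of the receptors were 0.0048 and 0.081 for type 1 and 0.0095 and 0.13 for type 2. Most receptors lay near the floor, so their medians may not reflect tissue content. How either set of values relates to the tissue taken was not tested.

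**Figure D5:**
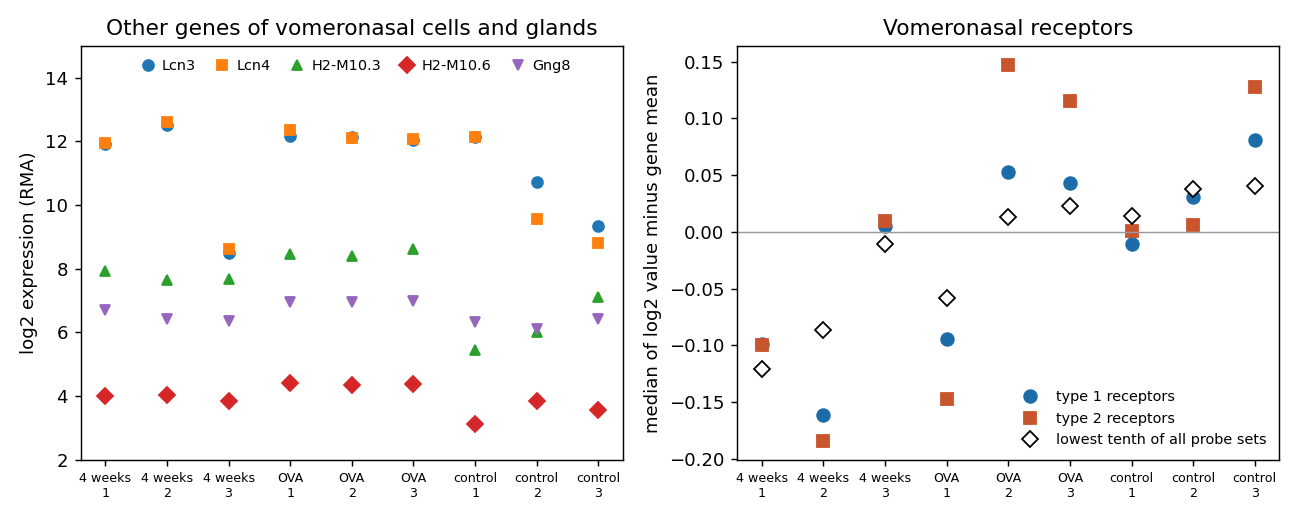
Left, log2 expression (vertical axis) of Lcn3, Lcn4, H2-M10.3, H2-M10.6 and Gng8 per array (horizontal axis). Right, median of the members' log2 values minus their own means, per array, for type 1, type 2 and the lowest decile of all probe sets. Lcn3 and Lcn4 drop in 4-week replicate 3 and control replicates 2 and 3, while the receptors are lowest in 4-week replicates 1 and 2 and OVA replicate 1.

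Markers of other cells were read alongside. Of all probe sets, 1.3% were called between OVA and the arrays labelled control and 6.33% between 4 weeks and OVA. Between 4 weeks and the arrays labelled control, 14.4% were. Whether the short lists below differ from other genes was not tested. Of 10 mature olfactory neuron markers, none passed in the comparisons of OVA with the arrays labelled control and of 4 weeks with OVA, and Gnal and Rtp1 fell between 4 weeks and the arrays labelled control, Gnal in only the fits without control replicate 1 or 4-week replicate 1 when an array was left out (otherwise adjusted p up to 0.112). Their mean level per array was 10.07 to 10.51 at 4 weeks, 10.18 to 10.35 after OVA and 10.31 to 10.64 in the arrays labelled control. Of 9 sustentacular and gland genes only Bpifb9a passed, lower in the OVA arrays than in the arrays labelled control (−4.80, adjusted p = 0.0415). It had 5.12, 5.82 and 8.21 in the OVA arrays and 9.87, 11.57 and 12.10 in the arrays labelled control. With an array left out, it passed only without control replicate 1, OVA replicate 3 or 4-week replicate 1 (otherwise adjusted p up to 0.141). Of 10 respiratory and ciliated genes none passed in any comparison. The part of all these markers in the receptor values was not tested. Olfactory receptors had median changes of −0.19 for OVA and −0.32 for 4 weeks against the arrays labelled control, and −0.10 for 4 weeks against OVA. The vomeronasal receptors had −0.03, −0.12 and −0.10 in the same order. The median level was 5.38 for the olfactory and 3.29 for the vomeronasal receptors, and RMA shrinks differences of dim probe sets. The sizes of these changes are therefore not comparable.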

How the data were processed

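Nasal mucosa RNA was measured on 9 Affymetrix Mouse Gene 1.0 ST arrays, 1 per sample. The authors deposited log2 values, 1 for each probe set and array, from RMA per the submitters' processing notes. The scale was read from the range, 1.63 to 13.8; RMA software and library: not given in the sources used here. RMA is fitted over all arrays together and shrinks differences of dim probe sets, which bears on these low receptors. No detection calls come with the table and no depth applies; the number of arrays limits the precision.

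Gene names came from GEO's annotation of the platform (2016). Of 35556 rows, 23410 had a symbol and were tested, 21789 of them with 1 gene and 1621 with several; 12146 had none. A single limma model (version 3.58.1, R 4.3.3, lmFit with eBayes) covered all groups with 6 residual and 2.98 prior degrees of freedom. Its two-sided p-values were adjusted by Benjamini-Hochberg over 23410 probe sets in each of 3 comparisons, with a threshold of 0.05. The fit was tested on simulated data. Members, lists, tests and the naming rule were chosen with earlier results of these data known. Named were, per comparison and type, up to 6 called members in each direction or, with under 3 called, the 3 with the smallest p; the 6 highest and 3 lowest members by mean; members with known ligands or roles; and called genes of 8 lists. Alternatives were quantile normalization, median centring, the brighter 60% of probe sets, all rows with or without a name, 1 probe set per gene, the median over a gene's probe sets, the compared groups only, an intensity trend, the replicate number as a block, and each array left out.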

Additional observations from a re-analysis of the deposited data

How the results depend on the processing

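In OVA against the arrays labelled control, the counts of 0 called receptors of either type held under every alternative run, and between 4 weeks and OVA the only change was 1 type 2 member called with the replicate number as a block, Vmn2r110 (adjusted p = 0.0466). Between 4 weeks and the arrays labelled control, 1 type 1 member was called after quantile normalization or median centring and 0 with the compared groups only, against 3, and 2 type 2 members with the compared groups only or the replicate block, against 1; the second was Vmn2r96 (adjusted p = 0.0222 with the block). With the block the count of type 1 members stayed at 3, but Vmn1r14 was no longer called (adjusted p = 0.053), nor was it with every row tested (0.0582). Of the other genes named as called, the block ended the calls of H2-M10.6 (0.0549) and Bpifb9a (0.0549) in the OVA comparison with the arrays labelled control, and of Hcn2 (0.0684) and Gnal (0.0592) in the 4-week one. With the compared groups only, Gap43 (0.0817), H2-M10.3 (0.0673), H2-M10.6 (0.0937) and Bpifb9a (0.0862) lost their OVA calls, and Hcn2 (0.0923), Kirrel3 (0.0537), Rtp1 (0.0538), Bcl11b (0.0596), H2-M10.3 (0.0580) and Gnal (0.0782) their 4-week calls. Testing every row ended the OVA calls of Gap43 (0.0773), H2-M10.6 (0.0756) and Bpifb9a (0.0796) and the 4-week calls of Hcn2 (0.0616), Bcl11b (0.0511) and Gnal (0.0507), and median centring those of Hcn2 (0.0626), Bcl11b (0.067) and Gnal (0.0639). Omp, which was not called, passed in the 4-week comparison with the arrays labelled control when the upper 60% of probe sets was tested (0.0487). With an array left out these counts ran from 0 to 6 for type 1 and from 0 to 3 for type 2. The type 1 median between 4 weeks and OVA was 0.012 after quantile normalization, against −0.09, and between 4 weeks and the arrays labelled control it was −0.011 after quantile normalization and −0.049 after median centring, against −0.12; quantile normalization sets the floor of all arrays equal by construction. Other medians moved by less than the spread between arrays (SD 0.073 for type 1 and 0.12 for type 2). No member lay in the upper 60% of probe sets by mean, so that alternative gave no value for them. Among single genes that had not passed, Omp turned to 0.016 between 4 weeks and OVA after median centring and Gnai2 to −0.093 between 4 weeks and the arrays labelled control after quantile normalization. With an array left out, Gnao1 ran from −0.056 to 0.14 between OVA and the arrays labelled control, Omp from −0.20 to 0.11 between 4 weeks and OVA and Gnai2 from −0.089 to 0.13 between 4 weeks and the arrays labelled control; the cause was not tested. Same-numbered arrays of different groups had correlated deviations in 5 of 9 pairs (r over 0.1, range −0.044 to 0.33), and 4 of 9 arrays correlated best with their own number. Pairs with different numbers ran from r = −0.36 to 0.27. The labels state no pairing, and these values do not settle whether same-numbered arrays were paired or handled together. Low signal limits every receptor value here.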

Other observations

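Probe sets annotated to several receptor genes were not part of the comparisons. There were 66 of them, with a median level of 5.03 on the log2 scale, against 3.29 for the median of the 163 single-gene members. Their median log2 change was −0.015 for OVA against the arrays labelled control, −0.12 for 4 weeks against OVA and −0.14 for 4 weeks against the arrays labelled control, and 1 of the 66 passed in any comparison, where 1.3%, 6.33% and 14.4% of all probe sets passed in these 3 comparisons. It is annotated to 2 type 2 receptors and had 3.93, 3.91 and 3.97 at 4 weeks, 4.53, 4.72 and 4.51 after OVA and 4.67, 4.06 and 4.70 in the arrays labelled control. It fell at 4 weeks below OVA (−0.65, SE 0.16, adjusted p = 0.0445 in limma), kept its call when any 1 control replicate was left out and lost it when any 1 4-week or OVA replicate was (adjusted p up to 0.13), and was chosen after its values were seen.

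Probe sets of the same receptor did not always move alike. For Vmn2r111, on chromosome 17, the brighter probe set (mean 4.00) had a log2 change of 0.07 between 4 weeks and the arrays labelled control (adjusted p = 0.883), while the dimmer (mean 2.89) had 2.50, 2.62 and 2.81 at 4 weeks and 2.98, 3.15 and 2.99 in the arrays labelled control and fell by 0.40 on the log2 scale (adjusted p = 0.0275, lost in 4 of 9 fits with an array left out: those without control replicate 2 or 3 or 4-week replicate 1 or 2). For Vmn1r208, on chromosome 13 and the highest member of either type, the probe sets had 0.04 and −0.65 in the same comparison (adjusted p = 0.904 and 0.0889).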
